A study of Mus musculus with 4 samples.

Results

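Loss of the zinc finger gene Zfp871 was examined in fibroblasts that already lacked Trp53, the gene of the p53 tumour suppressor. The comparison set 1 RNA sequencing library of Trp53-/-; Zfp871-/- cells, called the double null here, against 1 library of Trp53-/- cells. Genes with a CPM (a count scaled to the size of its library) of at least 1 in 1 or both of these libraries were described, which gave 13317 genes of the 54532 gene IDs in the count table. The lowest of these genes had 1.03 CPM in its higher library, and the highest gene left out had just under 1. Of the 13317, 12293 are annotated as protein-coding and 12693 reached 1 CPM in both libraries.

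The cells were primary mouse embryonic fibroblasts of C57BL/6 mice, taken at 12.5 to 13.5 days post-coitum and harvested at passage 4. The series holds 4 libraries, 1 for each genotype: Trp53-/-, Trp53-/-; Zfp871-/-, Zfp871-/- and wild type (WT). Both libraries compared here lack Trp53 from the germline, so every cell type of the culture lacks it. The double-null and Trp53-/- cells came from crosses of mice heterozygous for both genes, per the series description. How each allele was built, and whether embryos were pooled, is not given in the sources used here. With 1 library per genotype no test was possible, and a difference between genotypes cannot be told apart from a difference between embryos or cultures. Ratios are therefore given with exact (Clopper-Pearson) 95% intervals, in parentheses after each log2 ratio, which cover counting error only.

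Zfp871 encodes a protein of the Krüppel-type (C2H2) zinc finger family. Many members of this family carry a KRAB domain and recruit repressive chromatin factors to DNA, and these members are best known for silencing transposable elements. p53 is a transcription factor that is kept low by the ubiquitin ligase Mdm2 and that switches on genes of cell cycle arrest and apoptosis under stress. In cells without p53 those target genes are at their p53-independent level, so the comparison asks what else differs when Zfp871 is missing.

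The labels were first checked on the targeted gene. Zfp871 (ENSMUSG00000024298, chr17:32765496-32788287, minus strand) had 784 counts in Trp53-/- and 307 in the double null, for a log2 ratio of -1.43 (-1.64 to -1.25). In the pair with intact Trp53 it had 660 counts in WT and 327 in Zfp871-/-. The RNA was thus lower in both libraries labelled null and was absent from neither, and which exons it still held cannot be read from a count per gene. Trp53 RNA stood at 1233 counts in Trp53-/-, 1382 in the double null and 2383 in WT. Cdkn1a, which encodes the cell cycle inhibitor p21 and depends on p53, had 341 counts in each Trp53-null library and 13979 in WT. Library totals lay between 19303167 and 22324599 counts. Xist, the RNA of the inactive X chromosome, had between 9152 and 14475 counts in the 4 libraries. The Y-linked genes Kdm5d, Uty, Eif2s3y and Usp9y had 0 counts in each library.

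Ribosomal RNA differed between the libraries. A ribosomal RNA locus (CT010467.1), with Gm23935 and Lars2, whose counts moved with it, took 0.365% of counts in Trp53-/-. In the double null their share was 0.570%. The shares were 0.858% in WT and 1.30% in Zfp871-/-. CT010467.1 and Gm23935 were among the 5 largest gains in CPM, each with a log2 ratio of 0.64. The small nuclear RNA Rn7sk, which restrains the elongation factor P-TEFb, had 29 counts in Trp53-/-, 152 in the double null, 269 in WT and 211 in Zfp871-/-. Ribosomal RNA and Rn7sk lack poly(A) tails. Replication-dependent histone genes, whose RNAs also lack them, went the other way: 4 of 15 reached 1 CPM and all 4 were lower, with a median log2 ratio of -0.54. The part of RNA preparation in other differences was not tested.

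Most genes stood at nearly the same level in both libraries. The median log2 ratio of the double null over Trp53-/- was 0.0041, and the middle of the distribution ran from -0.13 at the 25th percentile to 0.12 at the 75th. Within 1.5-fold lay 12366 genes, or 92.9%. At least 2-fold higher in the double null were 110 genes (0.826%), and at least 2-fold lower were 167 (1.25%). At least 1.5-fold higher were 390 genes (2.93%), and at least 1.5-fold lower were 561 (4.21%). The counting interval lay on 1 side of an equal level for each of the 277 genes past 2-fold. The filter and the fold threshold largely fix this outcome by themselves, so it adds no support. Most of those genes were weakly expressed, since 124 of the 167 had under 100 counts in Trp53-/- and 86 of the 110 had under 100 in the double null. Requiring 1 CPM in both libraries left 33 genes higher and 65 lower at 2-fold.

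**Figure D1:**
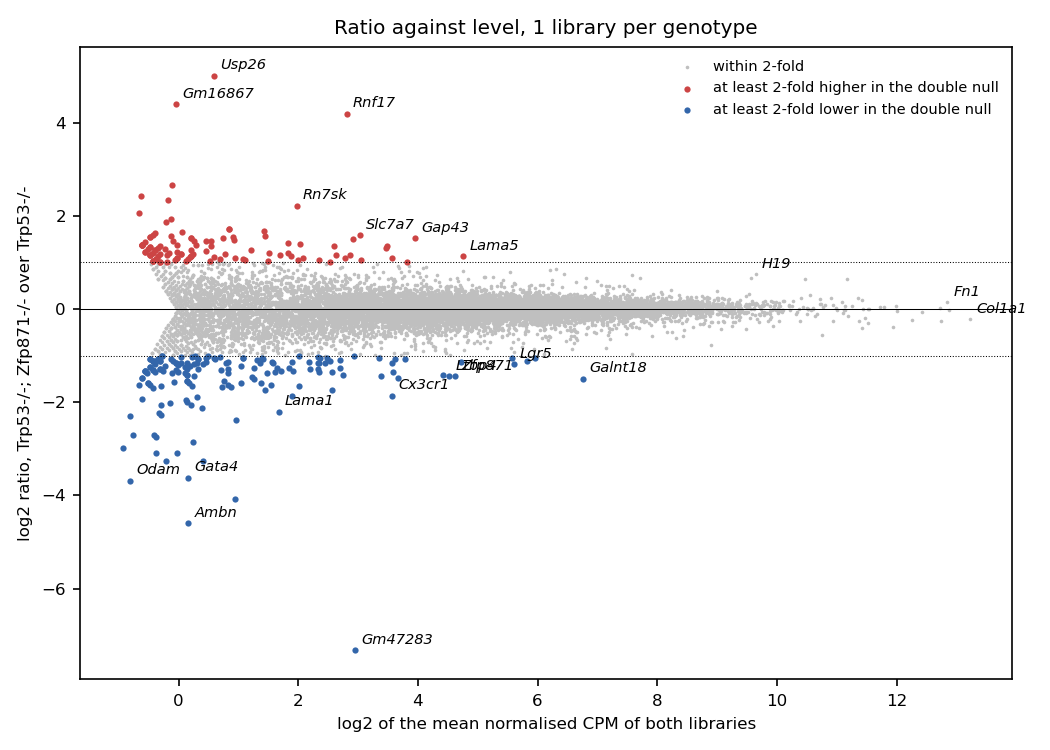
Each point is 1 of 13317 genes, with its mean normalised CPM in both libraries on a log2 scale (x axis) and the log2 ratio of the double null over Trp53-/- (y axis). Red points are the 110 genes at least 2-fold higher and blue points the 167 at least 2-fold lower, most of them at the left, where counts are few.

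The same genes were read in the pair with intact Trp53, which shares no library with this comparison. There 3.77% of the 13317 genes exceeded WT by 2-fold or more in Zfp871-/-, and 3.69% lay 2-fold or more below it. Of the 110 genes higher in the double null, 18 (16.4%) were also 2-fold higher in Zfp871-/- and 17 were 2-fold lower. Of the 167 genes lower in the double null, 22 (13.2%) were also 2-fold lower and 35 were 2-fold higher in Zfp871-/-. The genes shared made up 3.59% of those higher and 4.47% of those lower in Zfp871-/-. Genes past 2-fold in the double null thus lay in either direction in the other pair, and the difference between the pairs was not tested.

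Usp26 and Rnf17, a pair of germline genes, ranked highest. Usp26 (chrX:51753959-51801233), a deubiquitinating enzyme best known from the testis, had 0 counts in Trp53-/- and 70 in the double null. It was at least 21.9-fold higher, taking 3 counts as the floor of the library at 0. WT had 0 counts as well, and Zfp871-/- had 153. Rnf17 (chr14:56402581-56525032), a Tudor domain protein of male germ cells, went from 14 counts in Trp53-/- to 311 in the double null, for a log2 ratio of 4.19 (3.62 to 5.27). In WT it had 10 counts and in Zfp871-/- 301. For both genes the 2 libraries without Zfp871 stood above the 2 libraries with it, and no level overlapped.

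Other germline genes did not share this pattern. Of 48 germline genes found in the table, 10 reached 1 CPM, and 20 had 0 counts in Trp53-/-. Tex15, a meiotic gene needed for silencing of transposons in male germ cells, was the other member past 2-fold. It had 29 counts in Trp53-/- and 96 in the double null, for a log2 ratio of 1.57 (1.03 to 2.29). In WT and Zfp871-/- it had 155 and 120 counts, so here the Trp53-/- library was the low one among the 4. The remaining 7, among them Brdt (-0.01), Mei4 (0.05), Stag3 (0.13) and Tdrd7 (-0.18), had log2 ratios between -0.49 and 0.13. The median of the 10 was 0.05.

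The promoter of Usp26 is shown because this gene was at 0 in both libraries with Zfp871 and present in both without it. The 300 bases run from 250 before to 50 after the gene start (RefSeq, GRCm38.p6, chrX:51801184-51801483, minus strand). They hold neither of the motifs searched on both strands, the E-box CACGTG and the E2F-type GCGGGA, and so no letter is in capitals.
Usp26: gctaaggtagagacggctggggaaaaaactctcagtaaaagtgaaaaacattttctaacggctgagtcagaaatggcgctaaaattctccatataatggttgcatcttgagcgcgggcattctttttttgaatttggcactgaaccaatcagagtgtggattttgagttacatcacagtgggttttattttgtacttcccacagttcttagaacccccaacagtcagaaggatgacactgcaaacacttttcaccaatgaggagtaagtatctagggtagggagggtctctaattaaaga
The window holds 5 CG dinucleotides. Over all 32851 promoter windows of this length, 7.15% hold CACGTG and 19.98% hold GCGGGA. Of the 10 germline genes past 1 CPM, 8 had a window, and 3 of these held CACGTG and 2 held GCGGGA. Among all 10030 genes past 1 CPM with a window, 11.7% held CACGTG and 40.2% held GCGGGA.

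Further genes with high ratios had other roles. Slc7a7, the light chain of the y+L amino acid transporter, had 88 counts in Trp53-/- and 287 in the double null, for a log2 ratio of 1.59 (1.27 to 1.98). WT had 57 counts and Zfp871-/- had 281, so both libraries without Zfp871 were high. Gap43, a protein of growing axons, had 174 and 538 counts, a log2 ratio of 1.53 (1.29 to 1.80), with 317 in WT and 643 in Zfp871-/-. Jph2, which ties the sarcoplasmic reticulum to the plasma membrane, had 136 and 373 counts, a log2 ratio of 1.35 (1.08 to 1.66). Its counts were 1804 in WT and 1517 in Zfp871-/-, far above both Trp53-null libraries. Gm16867, a predicted gene on chromosome 14, had 0 counts in Trp53-/- and 45 in the double null, which is at least 14.1-fold higher. It had 36 counts in WT and 44 in Zfp871-/-, which puts only the Trp53-/- library at 0.

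Transcription factors of embryonic position stood at both ends of the ranking. Pitx1, which specifies the hindlimb, had 17 counts in Trp53-/- and 65 in the double null, for a log2 ratio of 1.73 (1.06 to 2.71). Pax3, a factor of dermomyotome and neural crest, had 74 and 203 counts, a log2 ratio of 1.34 (0.98 to 1.77). In the opposite direction stood Gata4, a factor of heart and visceral mesoderm, with 47 counts in Trp53-/- and 2 in the double null, for a log2 ratio of -3.62 (-7.73 to -2.71). Over the 32 members of the position list past 1 CPM, 19 were higher and 13 lower, with a median of 0.06.

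Genes with the lowest ratios included a pair from 1 gene cluster on chromosome 5 that encode enamel and junctional epithelium proteins. Ambn (chr5:88455991-88468531), which encodes the enamel matrix protein ameloblastin, had 49 counts in Trp53-/- and none in the double null, at least 17.4-fold lower. Odam (chr5:87885029-87894174), an odontogenic ameloblast-associated protein, had 25 and 0 counts, at least 8.86-fold lower. Both also had 0 counts in Zfp871-/-, against 23 and 22 in WT. Amtn, which encodes amelotin and lies between them, was looked up after these values were seen. It had 6 counts in Trp53-/-, 5 in WT and 0 in both libraries without Zfp871, and it did not reach 1 CPM.

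**Figure D2:**
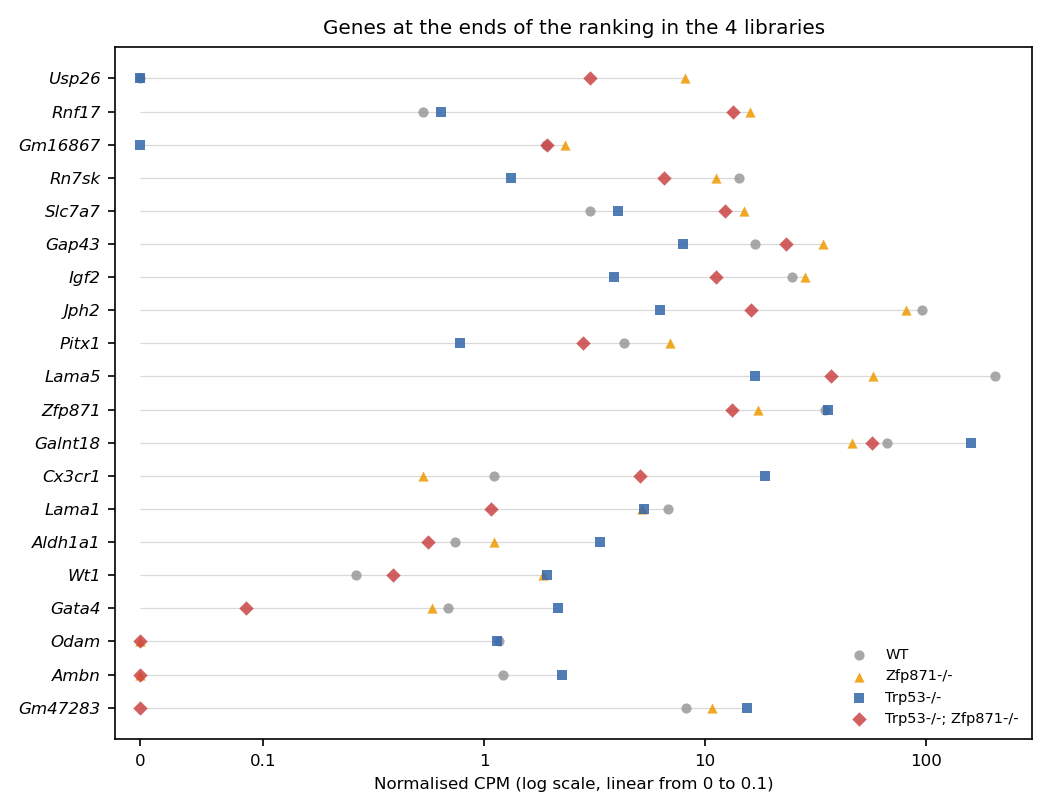
Normalised CPM of 20 named genes in each of the 4 libraries, on an axis that is linear from 0 to 0.1 and logarithmic above. Usp26, Rnf17 and Slc7a7 lie to the right in both libraries without Zfp871, while Odam and Ambn lie at 0 there, and Gm47283 is at 0 in the double null alone.

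The low genes named next each had their highest count in Trp53-/- among the 4 libraries, with WT and Zfp871-/- at varying levels. Gm47283, annotated at the distal end of the Y chromosome (chrY:90784738-90816464), had 337 counts in Trp53-/-, 0 in the double null, 154 in WT and 202 in Zfp871-/-. It was at least 119-fold lower. Mid1-ps1, the other gene of the Y chromosome past 1 CPM, named after its values were seen, was higher with 61 and 126 counts. Kdm5d, Uty, Eif2s3y and Usp9y were at 0 in each library and Ddx3y had at most 1 count. Reads of Gm47283 may belong to a near-identical copy elsewhere, and its identity is uncertain. Gm15446, annotated on chromosome 5, had 81 counts in Trp53-/-, 3 in the double null, 5 in WT and 1 in Zfp871-/-, which makes Trp53-/- the library that stood apart. Capn11, a calpain protease of the testis, had 36, 2, 0 and 1 counts in the same order and Creg2 had 40, 3, 3 and 2. On chromosome 7, the transcripts Gm38340, E230020A03Rik and Gm37827, of annotation class TEC, span 12.7 kb. They had 54, 47 and 32 counts in Trp53-/- and 4, 5 and 2 in the double null. WT had 10, 11 and 3 counts of them and Zfp871-/- had 34, 14 and 11.

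Galnt18, a glycosyltransferase that starts mucin-type O-glycans, had the lowest ratio of the 4656 genes with at least 1000 counts in Trp53-/-. It had 3481 counts in Trp53-/- and 1313 in the double null, for a log2 ratio of -1.49 (-1.59 to -1.40), with 1258 in WT and 872 in Zfp871-/-. Lgr5, an R-spondin receptor that amplifies Wnt signals, had 1470 and 688 counts, a log2 ratio of -1.18 (-1.32 to -1.05). Wnt4, a secreted Wnt ligand, had 676 and 359 counts, a log2 ratio of -0.997. Slc7a11, the cystine transporter subunit whose repression is linked to p53 and ferroptosis, had 375 and 156 counts, a log2 ratio of -1.34 (-1.63 to -1.08). In the pair with intact Trp53 the log2 ratios were 0.96 for Lgr5 and 0.32 for Slc7a11, so neither was lower there.

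Interferon-stimulated genes stood lower in the double null. These genes are switched on when interferon receptors activate STAT factors and IRF9, and they restrict viral replication. Of 53 such genes, all past 1 CPM, 49 had log2 ratios below 0, a share to be read against 49.2% of all 13317 genes. The interval lay below an equal level for 43 of them and above it for 2, against 2388 (17.9%) and 2547 of all genes. At least 1.5-fold lower were 12, at least 2-fold lower were 2 and none was 1.5-fold higher. The median log2 ratio was -0.40, against 0.0041 over all genes.

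Oas2, which makes the second messenger that activates RNase L, had 282 counts in Trp53-/- and 151 in the double null, for a log2 ratio of -0.98 (-1.28 to -0.70). In WT and Zfp871-/- it had 10 and 17 counts. Irf7, the factor that amplifies interferon production, had 1314 and 850 counts, a log2 ratio of -0.72 (-0.84 to -0.59), with 142 in WT and 163 in Zfp871-/-. Ifit3, which binds viral RNA together with other IFIT proteins, had 1005 and 654 counts, a log2 ratio of -0.71 (-0.85 to -0.56). For each of these genes the double null lay below Trp53-/- and well above both libraries with Trp53. Ifi27l2a (-1.06) and Ifit3b (-1.05) were the 2 genes past 2-fold. Mx1, Zbp1, Ifi207, Ifi44 and Ifi203 had log2 ratios between -0.96 and -0.72.

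Factors that relay the signal had ratios nearer to an equal level. Stat2 had 3071 counts in Trp53-/- and 3205 in the double null, for a log2 ratio of -0.03, and Irf9 had 1724 and 1707, a log2 ratio of -0.10. Ifnb1 and Ifng, which encode interferon beta and gamma, had 0 counts in all 4 libraries, which allows up to 3 counts in each. Of 27 genes of the interferon pathway (receptors, kinases and sensors) 20 were lower, against 49.2% of all genes, with a median of -0.07. The lowest were the RNA sensors Tlr7, at -0.80 (-1.11 to -0.52), and Tlr3, at -0.47 (-0.74 to -0.21).

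GTPases induced by interferon, which attack the vacuoles of intracellular pathogens, had a lower median than the list above. All 15 of those past 1 CPM were lower in the double null, 10 by at least 1.5-fold and 4 by at least 2-fold, and 14 had intervals below an equal level. Of all genes, 49.2% were lower, 4.21% by at least 1.5-fold and 1.25% by at least 2-fold, and 17.9% had intervals below an equal level. The 17 listed genes include 2 that did not reach 1 CPM. Their median log2 ratio was -0.84. Gbp3 had 1318 counts in Trp53-/- and 784 in the double null, for a log2 ratio of -0.84 (-0.97 to -0.71), with 83 in WT and 141 in Zfp871-/-. Iigp1 had 776 and 447 counts, a log2 ratio of -0.88 (-1.06 to -0.71), with 40 in WT and 93 in Zfp871-/-. Tgtp1 (-1.37), Gbp6 (-1.30), Gvin1 (-1.27) and Gbp5 (-1.01) were the 4 past 2-fold, each with at most 201 counts. Of these, Tgtp1 and Gbp5 reached 1 CPM in Trp53-/- but not in the double null, so they could enter only as lower genes. These genes form families of similar sequence, so reads could be split between members.

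The antigen presentation genes of MHC class I were lower as well, by less. All 20 had log2 ratios below 0, 14 with intervals below an equal level, and 2 were at least 1.5-fold lower. Of all genes, 49.2% had a ratio below 0, 17.9% an interval below an equal level and 4.21% were at least 1.5-fold lower. B2m, the light chain shared by all class I molecules, had 24086 counts in Trp53-/- and 19994 in the double null, for a log2 ratio of -0.36 (-0.38 to -0.33). H2-K1 had 8747 and 6830 counts, a log2 ratio of -0.45 (-0.49 to -0.40). Tapbp, which loads peptides onto class I molecules, had 3749 and 2700 counts, a log2 ratio of -0.56 (-0.63 to -0.49). The proteasome activator genes Psme1 and Psme2 were both at -0.05, with intervals that included an equal level. Summed over the list, the level was 2702 CPM in Trp53-/-, then 2061 in the double null, 1223 in WT and 1032 in Zfp871-/-. Of 14 complement genes 9 reached 1 CPM and 7 of these were lower, with a median of -0.52. C1s1, a protease of the first complement component, and Serping1, its inhibitor, had log2 ratios of -0.95 and -0.90.

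Macrophage markers stood lower with the immune genes. Macrophages are common in primary embryonic fibroblast cultures, and their markers were far higher in both Trp53-null libraries than in WT. The 15 markers summed to 1098 CPM in Trp53-/-, and to 985 in the double null, with 77.9 in WT and 89.5 in Zfp871-/-. None of the 15 was at 0 in Trp53-/- or the double null. In the double null 13 of 15 were lower, 12 with intervals below an equal level, and the median log2 ratio was -0.29. Of all genes, 49.2% were lower and 17.9% had intervals below an equal level. Fewer macrophages and less RNA per macrophage cannot be told apart in such bulk libraries, and the part of macrophages in the ratios of the immune genes was not tested.

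The macrophage genes did not all differ alike. Ptprc, the pan-leukocyte phosphatase CD45, had 751 and 610 counts, a log2 ratio of -0.39 (-0.55 to -0.23). C1qb had 1385 and 1127, a log2 ratio of -0.39 (-0.50 to -0.27), and Adgre1, the F4/80 antigen, had 1884 and 1621, a log2 ratio of -0.31 (-0.40 to -0.21). Lyz2, the lysozyme gene and the most abundant of the markers, had 9136 and 9700 counts, with a ratio of 0.00 (-0.04 to 0.04) whose interval included an equal level. Cd68 (0.14) and Tyrobp (0.05) were the 2 of the 15 markers with ratios above 0. Mmp12, a macrophage elastase, was higher at 0.31 (0.20 to 0.42). Far lower than the markers was Cx3cr1, the fractalkine receptor, with 408 and 118 counts and a log2 ratio of -1.86 (-2.19 to -1.58). Aif1, a calcium-binding protein of macrophages, was at -1.13 (-1.60 to -0.72). Of 32 further macrophage genes past 1 CPM, 25 were lower, against 49.2% of all genes. At least 2-fold lower were 3, against 1.25% of all genes, and the median was -0.27. The scavenger receptor Marco (-1.41) and the chemokine Cxcl9 (-1.87) lay in the same range, Marco being named after its value was seen. Marco had 677 counts in Trp53-/- and 270 in the double null, and Cxcl9 had 129 and 36.

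**Figure D3:**
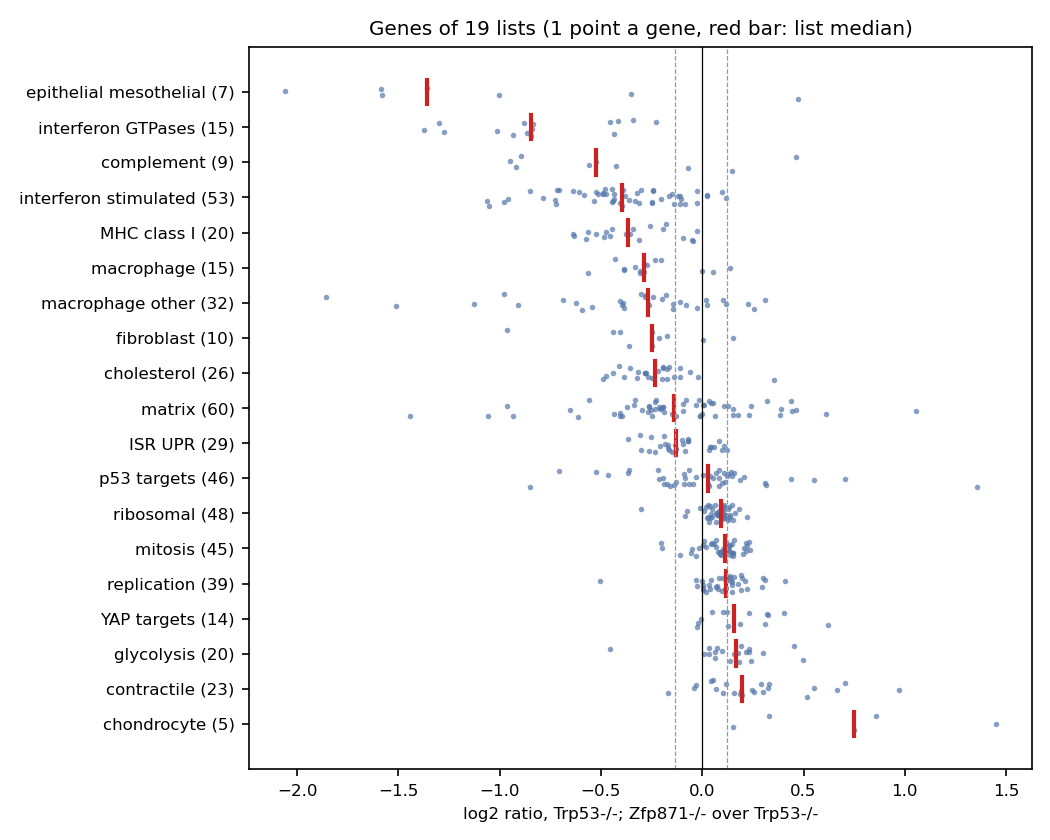
Log2 ratios of the double null over Trp53-/- (x axis) for the genes of 19 lists, with the number of genes past 1 CPM in parentheses. A red bar is a list's median and the dashed lines are the 25th and 75th percentiles of all 13317 genes. The interferon GTPases (-0.84), interferon-stimulated genes (-0.40) and MHC class I genes (-0.37) lie left of both lines, and the ribosomal (0.09) and mitotic (0.11) genes lie between them.

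Promoters of interferon-stimulated genes are shown because this list stood lower together. They are the 3 named genes with the lowest ratios whose window (RefSeq, GRCm38.p6, as above) holds the core of the interferon-stimulated response element. This core was searched as GAAANNGAA on both strands, where it reads TTCNNTTTC on the other, and each match is in capitals. Ifit3b lies at chr19:34607707-34608006 (plus strand), Ifi207 at chr1:173741760-173742059 (minus strand) and Ifi44 at chr3:151749861-151750160 (minus strand).
Ifit3b: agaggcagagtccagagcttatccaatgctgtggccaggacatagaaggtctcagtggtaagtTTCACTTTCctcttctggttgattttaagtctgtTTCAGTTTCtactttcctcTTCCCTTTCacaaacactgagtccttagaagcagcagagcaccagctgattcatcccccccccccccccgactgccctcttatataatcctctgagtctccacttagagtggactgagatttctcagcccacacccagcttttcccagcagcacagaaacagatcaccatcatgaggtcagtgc
Ifi207: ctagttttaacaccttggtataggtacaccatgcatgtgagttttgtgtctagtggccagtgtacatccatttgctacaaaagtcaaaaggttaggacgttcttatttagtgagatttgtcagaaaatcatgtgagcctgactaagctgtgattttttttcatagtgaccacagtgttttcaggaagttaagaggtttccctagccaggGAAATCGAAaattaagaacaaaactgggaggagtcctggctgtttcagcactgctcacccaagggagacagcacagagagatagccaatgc
Ifi44: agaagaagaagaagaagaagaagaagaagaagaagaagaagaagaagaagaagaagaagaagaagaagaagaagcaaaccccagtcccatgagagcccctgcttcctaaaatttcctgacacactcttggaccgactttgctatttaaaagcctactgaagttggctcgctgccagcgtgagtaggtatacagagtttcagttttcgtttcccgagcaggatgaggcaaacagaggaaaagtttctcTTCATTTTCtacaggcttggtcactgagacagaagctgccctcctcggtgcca
Ifit3b holds 3 matches, and Ifi207 and Ifi44 hold 1 each. Of 41 interferon-stimulated genes with a window, 23 held the motif (56.1%), against 8.63% of 10030 genes past 1 CPM with a window and 8.56% of all 32851 windows. The median log2 ratio was -0.40 for the 23 genes with the motif and -0.33 for the 18 without it. At least 1.5-fold lower were 6 of the 23 (26.1%) and 1 of the 18 (5.56%). Outside the list, 843 genes held the motif, and 52.2% of these were lower in the double null with a median of -0.01, against 48.3% and 0.01 for the 9146 without it. At least 1.5-fold lower were 5.34% of the 843 and 3.19% of the 9146. These differences were not tested.

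Genes of cholesterol synthesis and uptake stood lower by a small margin. The pathway turns acetyl-CoA into cholesterol and is driven by the transcription factor SREBP2 when sterols run short. Of 26 genes, all past 1 CPM, 25 were lower in the double null and 21 had intervals below an equal level, but none reached 1.5-fold. The median log2 ratio was -0.23. Of all genes, 49.2% were lower and 17.9% had intervals below an equal level. Hmgcs1, which makes HMG-CoA, had 5182 counts in Trp53-/- and 4140 in the double null, for a log2 ratio of -0.41 (-0.47 to -0.35), with 2747 in WT and 4008 in Zfp871-/-. Insig1, which retains SREBP in the endoplasmic reticulum, had 2584 and 1959 counts, a log2 ratio of -0.49 (-0.57 to -0.40). Sqle, which epoxidizes squalene, had 3449 and 3011 counts, a log2 ratio of -0.28 (-0.36 to -0.21).

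The promoter of Hmgcs1 (chr13:119690101-119690400, plus strand) is shown because it was the 1 window among 18 of this list that held the core of the sterol regulatory element. The core was searched as TCACNCCAC on both strands and is in capitals.
Hmgcs1: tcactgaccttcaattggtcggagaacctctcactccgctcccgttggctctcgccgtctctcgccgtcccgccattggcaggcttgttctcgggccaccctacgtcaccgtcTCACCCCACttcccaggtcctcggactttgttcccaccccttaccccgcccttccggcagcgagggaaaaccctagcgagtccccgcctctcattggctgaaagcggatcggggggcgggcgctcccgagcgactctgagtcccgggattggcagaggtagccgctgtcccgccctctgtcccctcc
The motif is found in 1.24% of all windows. Among 142 genes outside the list that hold it, 49.3% were lower in the double null and the median log2 ratio was 0.01.

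Mesothelial and epithelial markers had the lowest median of any list with at least 5 genes. Of 10 markers, 7 reached 1 CPM, 6 of these were lower in the double null, and 5 were at least 2-fold lower, with a median log2 ratio of -1.36. Of all genes, 1.25% were at least 2-fold lower. Wt1, Krt8 and Lrrn4 reached 1 CPM in Trp53-/- but not in the double null, so they could enter only as lower genes, and the other 4 reached it in both. Wt1, a factor of mesothelium, kidney and gonad, had 42 counts in Trp53-/- and 9 in the double null, for a log2 ratio of -2.06 (-3.54 to -1.25). Krt18 had 86 and 29 counts, a log2 ratio of -1.58 (-2.32 to -1.03), and Upk3b, a uroplakin of mesothelium, had 69 and 23, a log2 ratio of -1.58 (-2.42 to -0.97). In WT these 3 genes had 5, 9 and 16 counts, and in Zfp871-/- 35, 75 and 53, so Trp53-/- and Zfp871-/- were the high libraries.

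Not every gene of this list was lower. Krt19 had 194 and 287 counts, a log2 ratio of 0.47 (0.21 to 0.75), and Msln, at -0.35 (-1.04 to 0.29), did not differ beyond counting error. Krt19 alone reached 5 CPM, so at that level the list's median turned to 0.47. Aldh1a1, a retinoic acid synthase, had 73 and 13 counts, a log2 ratio of -2.39 (-3.55 to -1.72). The basement membrane gene Lama1 had 116 and 25 counts, a log2 ratio of -2.20 (-2.99 to -1.67). Its relative Lama5 went the other way with 368 and 865 counts, a log2 ratio of 1.14 (0.97 to 1.32), far below the 3848 counts of WT.

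**Figure D4:**
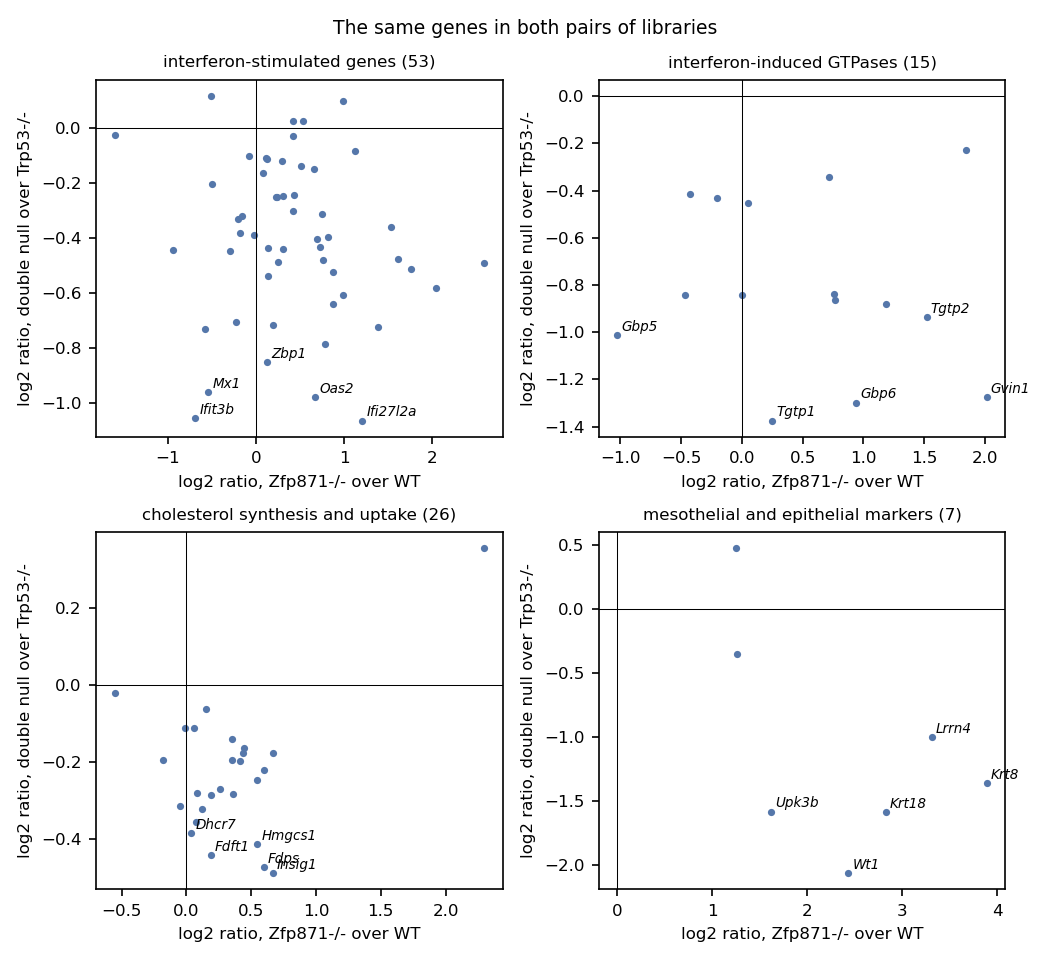
Genes of 4 lists by their log2 ratio in the pair with intact Trp53 (x axis, Zfp871-/- over WT) and in the Trp53-null pair (y axis, double null over Trp53-/-). Most genes lie below 0 on the y axis and right of 0 on the x axis, with list medians of -0.40 and 0.31 for the interferon-stimulated genes and -1.36 and 2.43 for the mesothelial and epithelial markers.

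Matrix genes, the main products of fibroblasts, were lower in part. Of 60 matrix genes past 1 CPM, 39 were lower in the double null and 21 higher, with a median log2 ratio of -0.14. At least 2-fold lower were 2 and at least 2-fold higher was 1. Of all genes, 49.2% were lower, 1.25% at least 2-fold lower and 0.826% at least 2-fold higher. The 5 largest losses in CPM were all matrix genes. Col1a1 had 224041 counts in Trp53-/- and 205437 in the double null, for a log2 ratio of -0.21 (-0.22 to -0.20). Col1a2 had a log2 ratio of -0.25, Tnc of -0.23, Postn of -0.40 and Col3a1 of -0.41, each with an interval no wider than 0.033. Fn1, which encodes fibronectin, was the largest gain of a protein-coding gene, from 151945 to 179209 counts, a log2 ratio of 0.15 (0.14 to 0.16).

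Other matrix genes had larger ratios than the collagens named above. Ltbp4, a binding protein of latent TGF-beta, had a log2 ratio of -1.44 (-1.65 to -1.25). Ccn3 had 1402 and 715 counts, a log2 ratio of -1.06 (-1.19 to -0.93). The small proteoglycans Dcn and Lum, which space collagen fibrils, had log2 ratios of -0.97 (-1.03 to -0.90) and -0.93 (-1.19 to -0.70). Dcn had 5502 counts in Trp53-/- and 2994 in the double null, with 1504 in WT and 3626 in Zfp871-/-. In the pair with intact Trp53, Ltbp4 (-1.715), Ccn3 (-1.04) and Lum (-1.87) were lower too, while Dcn (1.27) was higher. Mfap5, a microfibril protein, was higher with 117 and 261 counts, a log2 ratio of 1.06 (0.75 to 1.40), and Col11a1 had a log2 ratio of 0.61. Of 10 fibroblast markers 8 were lower, against 49.2% of all genes, with a median of -0.25 and Pdgfra at -0.36.

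Contractile and YAP target genes were higher for the most part. Of 23 contractile genes 20 were higher in the double null, 18 with intervals above an equal level, and the median log2 ratio was 0.20. Of all genes, 50.8% were higher and 2547 of 13317 had intervals above an equal level. Acta2, the smooth muscle actin of myofibroblasts, had 55518 counts in Trp53-/- and 67697 in the double null, for a log2 ratio of 0.20 (0.18 to 0.21). Actg2 had 1888 and 3185 counts, a log2 ratio of 0.67 (0.58 to 0.75), and Myh11 had 252 and 438, a log2 ratio of 0.70 (0.48 to 0.94). Cnn1 was at 0.52 (0.44 to 0.59). Of 14 YAP targets 11 were higher with a median of 0.16, led by Ankrd1 at 0.62 (0.52 to 0.72) and with Ccn1 at 0.32 (0.29 to 0.35). Tgfb3 had 3135 and 5534 counts, a log2 ratio of 0.73 (0.67 to 0.79), while the activin subunit gene Inhbb was at -0.71.

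Division and energy genes were higher by small amounts. Of 45 mitotic genes 38 were higher in the double null, 25 with intervals above an equal level (against 2547 of all 13317 genes), none reached 1.5-fold and the median was 0.11. Aurka, a spindle pole kinase, had 1447 and 1815 counts, a log2 ratio of 0.24 (0.14 to 0.34), and Plk1 had 1839 and 2275, a log2 ratio of 0.22 (0.13 to 0.31). Of 39 replication genes 35 were higher with a median of 0.12, and 4 were lower, of which Gins3, at -0.51, was the 1 with an interval below an equal level. Of 20 glycolysis genes 19 were higher with a median of 0.17. Gapdh had 38479 and 48344 counts, a log2 ratio of 0.24 (0.22 to 0.26), and Slc16a3, the lactate exporter, had a log2 ratio of 0.50 (0.36 to 0.64). Of 48 ribosomal protein genes 44 were higher with a median of 0.09. Of all genes, 50.8% were higher, and their 75th percentile, 0.12, lies beside these medians.

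The p53 targets did not differ as a set. Of 46 targets past 1 CPM 25 were higher and 21 lower, with a median of 0.03, and 1 was past 2-fold. That gene was Perp, a desmosomal protein that acts in apoptosis, with 9 counts in Trp53-/- and 28 in the double null, for a log2 ratio of 1.36 (0.42 to 2.82), against 1052 in WT. Mdm2 had 1397 and 1523 counts, a log2 ratio of 0.04 (-0.07 to 0.14). Sulf2, a sulfatase of heparan sulfate, was lower with 2688 and 1587 counts, a log2 ratio of -0.85 (-0.94 to -0.76). Pmaip1, which encodes the BH3-only protein Noxa, was higher with 227 and 395 counts, a log2 ratio of 0.71 (0.47 to 0.95). Chek1 (0.38) and Cdkn2a (0.28) were the regulators of p53 with the largest ratios, among 18 with a median of 0.05.

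Imprinted genes, which are expressed from 1 parental allele, lay in both directions. Of 28 past 1 CPM, 18 were lower and 10 higher in the double null, with a median of -0.12. Igf2, a fetal growth factor, had 85 counts in Trp53-/- and 260 in the double null, for a log2 ratio of 1.501 (1.17 to 1.90), with 468 in WT and 535 in Zfp871-/-. H19, the noncoding RNA beside it that is expressed from the other allele, had 13097 and 23302 counts, a log2 ratio of 0.74 (0.71 to 0.77), with 22809 in WT and 26404 in Zfp871-/-. Both genes of this locus were thus lowest in Trp53-/-. Genes of the Dlk1-Meg3 locus were lower. Dlk1 had 6297 and 4498 counts, a log2 ratio of -0.57 (-0.63 to -0.52), Meg3 had 9073 and 6464, a log2 ratio of -0.58 (-0.62 to -0.53), and Rian was at -0.31. Peg3 was at -0.31 and Nnat at 0.89.

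Neighbours of Zfp871 on chromosome 17 had log2 ratios on both sides of 0. Within 5 Mb of its start lie 179 other genes past 1 CPM, of which 93 (52.0%) were lower, with a median log2 ratio of -0.01. At least 1.5-fold lower were 7 (3.91%) and at least 1.5-fold higher 2 (1.12%), against 4.21% and 2.93% of all genes. The window takes in the MHC, and H2-K2 (-1.64), H2-Q4 (-0.63), Psmb9 (-0.64) and Aif1 (-1.13) are among the 7, besides Fgd2 (-0.71), Cyp4f13 (-0.67) and Msh5 (-0.74). Msh5 had 25 and 15 counts and an interval that included an equal level. Mapk13 (0.82) and Gm11131 (1.54) were the 2 higher genes. Among the 16 neighbours within 500 kb the log2 ratios ran from -0.67 to 0.20, with a median of -0.14. Of 31 genes of a list of zinc finger genes, 27 of them on chromosome 17, 20 were lower and 11 higher with a median of -0.05, and Zfp871 was the 1 past 2-fold.

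X-linked genes stood slightly lower together. Of 448 past 1 CPM, 335 (74.8%) had log2 ratios below 0, with a median log2 ratio of -0.12. The medians of the 19 autosomes lay between -0.01 and 0.03, and between 43.5% and 52.5% of their genes were lower. The shift was small for each gene, since 20 X-linked genes were at least 1.5-fold lower (4.46%) and 6 at least 1.5-fold higher (1.34%). It was found along the whole chromosome, with medians between -0.22 and -0.09 in the 9 windows of 20 Mb. It was also found at each level of expression, with medians of -0.12 under 10 CPM, -0.13 from 10 to 100 CPM and -0.09 above 100 CPM.

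X-linked genes took a larger share of counts in Trp53-/- than in the other libraries. Without Xist the share was 3.56% of its counts, 3.29% of those of the double null, 3.26% of those of WT and 3.21% of those of Zfp871-/-. Xist itself had 12564 counts in Trp53-/- and 14475 in the double null, for a log2 ratio of 0.12 (0.08 to 0.15). Gene by gene, the median log2 ratio of X-linked genes over WT was 0.06 for Trp53-/- and -0.07 for the double null. In the pair with intact Trp53 the median of the same genes was -0.05, with 56.2% lower in Zfp871-/-, and Xist was lower there at -0.41. Members of other lists that lie on the X, such as Kif4 (-0.20), Nsdhl (-0.36), Xiap (-0.31), Usp9x (-0.18) and Tlr7 (-0.80), were lower in the double null, while the X-linked Usp26 was higher.

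**Figure D5:**
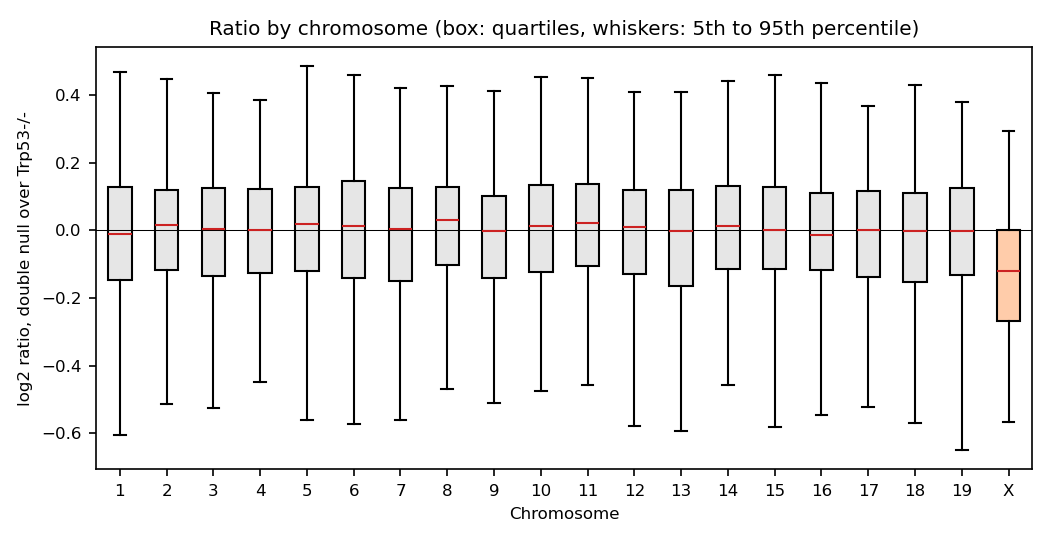
Log2 ratio of the double null over Trp53-/- (y axis) for the genes past 1 CPM of each chromosome (x axis), with boxes from the 25th to the 75th percentile and whiskers from the 5th to the 95th. The 448 genes of the X (orange) have a median of -0.12, below the medians of the 19 autosomes, which lie between -0.01 and 0.03.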

How the data were processed

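The authors deposited 1 table of raw counts per gene, for which the submitters' processing notes name fastp, STAR, featureCounts and mm10. The strand setting, like the versions and annotation, is not given in the sources used here, so overlapping and antisense genes are uncertain. Values deposited per library were read as FPKM of the authors, since they equal counts divided by 1 length per gene and 1 factor per library, and were not used further. Gene symbols and coordinates came from GENCODE M21, where 54495 of 54532 IDs were found.

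Counts were scaled with the TMM method of edgeR 4.0.16 (factors of 1.04 in both compared libraries). Log2 ratios use a prior count of 2, and CPM values in the text are TMM-scaled. The exceptions are the 1 CPM filter and the lowest and highest CPM given for it, which use raw library totals. Intervals are exact 95% binomial intervals, and a library at 0 was set to a floor of 3 counts. Both cover counting error only, because reads are not independent molecules. The ratio and interval code was tested on simulated data. No test was run.

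Genes named are the 20 highest and 20 lowest by the interval bound nearest an equal level, up to 4 members of each of 62 lists (up to 10 of 8 lists) with the largest ratios whose interval excludes an equal level, Zfp871, Trp53, Mdm2 and Cdkn1a, the 5 largest gains and losses in CPM, and neighbours past 1.5-fold. Other genes named were chosen after their values were seen. The members and lists were chosen with earlier results of these data known, and alternatives of scaling, prior count and filter were tried. Some of the named genes are not reported here.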

Additional observations from a re-analysis of the deposited data

Results flagged for a closer look

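Lists and genes that differed in opposite directions in the pairs without and with Trp53 are given here as the log2 ratio of the double null over Trp53-/- minus that of Zfp871-/- over WT. With 1 library per genotype the difference was not tested. For lists, the difference of the medians was -3.79 for the mesothelial and epithelial markers, -1.56 for the interferon-induced GTPases, -0.71 for the interferon-stimulated genes, -0.66 for the fibroblast markers, -0.56 for the macrophage markers, -0.54 for the cholesterol genes and 1.43 for the chondrocyte markers. The mesothelial and epithelial value rests on 7 genes, of which Wt1, Krt8 and Lrrn4 passed 1 CPM only through Trp53-/-. At 5 CPM the median of that list in the Trp53-null pair turned to 0.47. The chondrocyte value rests on 5 genes. Col2a1, the main collagen of cartilage, had 25 counts in Trp53-/- and 50 in the double null, but 11633 in WT and 558 in Zfp871-/-. Acan, the cartilage proteoglycan aggrecan, had 100, 180, 1919 and 166 counts in the same order, so WT was the library that stood apart.

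Among the genes with the highest and lowest ratios, the difference was -4.86 for Gm38340, -3.97 for P2rx3 and 2.96 for Lama5. P2rx3, an ATP-gated ion channel of sensory neurons, had 200 counts in Trp53-/-, 62 in the double null, 8 in WT and 44 in Zfp871-/-.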

How the results depend on the processing

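Scaling by total counts or by DESeq2 size factors moved the ratios of all genes by 0.00058 and 0.0060 (log2), and no count at 2-fold or 1.5-fold by over 1.5 times. Neither did prior counts of 0.5 and 5, 1 CPM in any 2 of the 4 libraries, protein-coding genes only, or genes whose interval lay on 1 side of an equal level. At 2-fold the interval setting could not change a count, since each gene past 2-fold already met it. Other filters moved counts by over 1.5 times. With 1 CPM required in both libraries, 33 genes were 2-fold higher, 65 2-fold lower, 222 1.5-fold higher and 352 1.5-fold lower. With no filter the counts were 991, 1141, 2536 and 2764. Among list and chromosome medians, 3 turned: the bone list (to -0.028) and the endothelial list, which holds 1 gene past 1 CPM (to -0.18), with no filter, and the mesothelial and epithelial list (to 0.47, Krt19 alone) at 5 CPM. A further 11 values of medians moved by over 0.1. Without a filter the chondrocyte median was 0.24 and at 5 CPM it was 0.45. Of the ratios of 301 named genes, 5 moved past their interval, each at a prior count of 5 and for a gene at 0 in 1 library. Depth limits genes under 100 counts most. No paired analysis was possible because each genotype has 1 library.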

Other observations

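Hox genes, which encode position along the body axis, were lower in part in the double null. Of 30 past 1 CPM, 19 were lower and 11 higher, with a median log2 ratio of -0.13, against 49.2% of all genes lower. Hoxc9 went from 553 counts in Trp53-/- to 318 in the double null (log2 ratio -0.88, -1.09 to -0.69), with 94 in WT and 233 in Zfp871-/-. Hoxc6 had 1059 and 845 counts, a log2 ratio of -0.41 (-0.55 to -0.28), while Hoxc5 beside it had 155 and 221, a log2 ratio of 0.42 (0.12 to 0.73).

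Genes of extracellular nucleotides and prostaglandins were mixed. Nt5e, which makes adenosine from AMP, went from 153 counts in Trp53-/- to 77 in the double null (log2 ratio -1.06, -1.49 to -0.67). Enpp2, the lysophospholipase autotaxin, had 75 and 32 counts, a log2 ratio of -1.26 (-1.96 to -0.70). Of the 12 genes of nucleotide turnover and its receptors past 1 CPM, 7 were lower. Ptgs2, the inducible cyclooxygenase, had 1154 and 2197 counts, a log2 ratio of 0.84 (0.74 to 0.94), while the receptor genes Ptgfr and Ptgir were at -0.93 and -0.63. Of 23 targets of the antioxidant factor NRF2 past 1 CPM, 14 were higher and 9 lower, with a median of 0.08. The lowest was Slc7a11, the cystine importer, at -1.34, while Hmox1 had a log2 ratio of 0.47 (0.38 to 0.55) and Nqo1 of 0.41 (0.25 to 0.57).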
